A study of Caenorhabditis elegans with 2 samples.

Results

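The regions described here are the EFL-1 binding peaks of young adult Caenorhabditis elegans that sat close to the start of a single protein-coding gene. A peak belonged to the set if its summit had annotated starts of exactly 1 protein-coding gene within 500 bp, if the nearest of those starts was at most 200 bp away, and if no tRNA gene lay within 100 bp. Of 2179 reproducible peaks on the nuclear chromosomes, 504 met the rule. They belonged to 502 genes, since rnr-1 and sms-3 had 2 such peaks each. The other nuclear peaks comprised 418 single-gene peaks farther than 200 and at most 500 bp from a start, 408 peaks near 2 or more genes, 549 peaks away from starts and tRNA genes, and 300 peaks at tRNA genes.

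The data came from chromatin immunoprecipitation with sequencing of whole hermaphrodites of strain YL479, in which EFL-1 carries a C-terminal GFP-FLAG tag and was pulled down with an antibody against GFP. There was 1 group, of 2 biological replicates, with no second genotype, stage or treatment to compare. The labels do not give the promoter of the tagged gene or the number of copies of the efl-1 region in the strain, and whole animals mix the germ line with every somatic tissue. The members were chosen by measured values, because a peak entered the reproducible list through its signal in both replicates and its class through the place of its summit. Signal levels and distances from the start are therefore given as descriptions, and the intervals beside shares are 95% Wilson intervals that cover counting error over peaks only.

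EFL-1 is one of the worm's E2F transcription factors. E2F proteins pair with a DP partner, DPL-1 in the worm, and bind short GC-rich sequences near the starts of genes for DNA synthesis and cell division. Together with the pocket protein LIN-35 and the LIN-9, LIN-37, LIN-52, LIN-53 and LIN-54 proteins they form the DREAM complex, which represses many of these genes, and in the germ line EFL-1 is known for genes used in oocytes and early embryos. Worm promoters are short, many genes lie close together in tandem, and many transcripts receive a spliced leader that replaces their original first bases, so an annotated start can lie downstream of the place where transcription began.

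The sequence around the summits of the strongest members, and of the genes for EFL-1 and LIN-9 themselves, is shown because the E2F-type sequence in it is the feature most easily read by eye. The E2F-type sequence searched was TTTNNCGC with C or G at each N, so TTTCCCGC, TTTCGCGC, TTTGCCGC or TTTGGCGC, on either strand. A shorter form, TTNNCGC with the same 2 choices at each N, lacks the first T and is contained in every match of the longer one. Capitals mark the matches, each window runs on the strand of the gene from 60 bases before to 60 bases after the summit and is cut at the annotated start, and the coordinates are those of ce11. The windows lie at chrII:10563509-10563629 on the minus strand for cdc-48.1, chrIII:10759189-10759306 on the plus strand for tasp-1, chrII:4999279-4999399 on the plus strand for citk-2, chrV:13312394-13312514 on the minus strand for nasp-2, chrII:11968400-11968520 on the plus strand for mex-1, chrV:16965786-16965906 on the minus strand for efl-1 and chrIII:8904181-8904301 on the minus strand for lin-9.
cdc-48.1: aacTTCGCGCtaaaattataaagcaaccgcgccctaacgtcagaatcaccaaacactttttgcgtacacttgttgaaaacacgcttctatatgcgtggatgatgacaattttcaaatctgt
tasp-1: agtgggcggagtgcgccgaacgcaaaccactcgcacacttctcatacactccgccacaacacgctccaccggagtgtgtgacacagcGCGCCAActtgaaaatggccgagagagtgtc
citk-2: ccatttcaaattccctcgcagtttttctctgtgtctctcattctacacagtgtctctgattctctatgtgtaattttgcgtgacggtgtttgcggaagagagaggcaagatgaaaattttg
nasp-2: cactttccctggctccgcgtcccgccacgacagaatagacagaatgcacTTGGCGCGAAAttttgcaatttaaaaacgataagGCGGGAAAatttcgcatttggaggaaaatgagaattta
mex-1: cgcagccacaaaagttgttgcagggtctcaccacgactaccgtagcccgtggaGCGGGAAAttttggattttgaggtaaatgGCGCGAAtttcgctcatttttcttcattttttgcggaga
efl-1: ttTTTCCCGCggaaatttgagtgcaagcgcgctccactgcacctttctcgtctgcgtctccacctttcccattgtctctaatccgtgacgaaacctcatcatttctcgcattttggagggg
lin-9: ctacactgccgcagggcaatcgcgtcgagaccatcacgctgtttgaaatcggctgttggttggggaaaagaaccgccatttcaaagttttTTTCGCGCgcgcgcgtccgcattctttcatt
cdc-48.1 and tasp-1, the strongest members, hold only the shorter form in these windows. nasp-2 holds the longer form at 2 places, mex-1, efl-1 and lin-9 hold it at 1, and nasp-2 and mex-1 hold a further copy of the shorter form. citk-2 holds neither form, although only 4 members had a higher signal.

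Some of the strongest downstream members held the sequence within the transcribed part of the gene, and these sites are given with 9 flanking bases on each side, on the strand of the site. The site of aldo-2, at chrIII:5876434-5876459 on the minus strand, lies 7 bp from the summit. The skpt-1 site is at chrIII:5448367-5448391 on the plus strand, 13 bp from the summit, and the mel-32 site is at chrIII:6442691-6442715 on the plus strand, 1 bp from the summit.
aldo-2: ccaacaataTTTGGCGCcgcccgttc
skpt-1: ttttttaggTTGGCGCgagtttttg
mel-32: attcaaataTTCGCGCcatgcgtat

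Most members had their summit before the start. The summit was upstream at 437 of the 504 members (86.7%, interval 83.5 to 89.4%) and at or downstream of the start at 67. The side of the start was not part of the rule. The pooled candidate list, from which the reproducible peaks were drawn, gives a background for it: 3285 further candidates met the same position rule without being reproducible, and of these 1796 (54.7%, interval 53.0 to 56.4%) were upstream. Of all 3789 pooled candidates at such positions 13.3% were on the reproducible list, against 7.27% of all nuclear candidates. The single-gene peaks farther from the start had 376 of 418 summits upstream (90.0%, interval 86.7 to 92.5%), and that interval overlaps the one of the members.

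**Figure D1:**
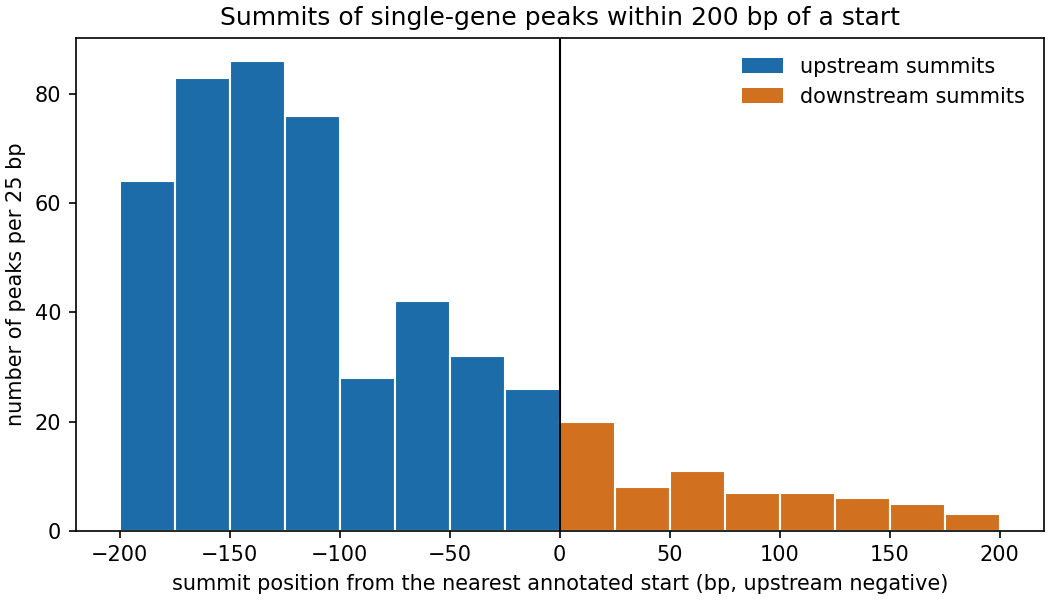
Number of peaks (vertical axis) by summit position relative to the nearest annotated start of the single gene (horizontal axis, bp, 25 bp per bar), for 437 upstream summits left of the line and 67 downstream summits right of it. The bar from 150 to 126 bp before the start is the tallest, with 86 peaks, and the downstream bars hold between 3 and 20 peaks each.

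The summits were densest between 200 and 101 bp before the start, where 309 of the 504 lay, 147 in the farther 50 bp and 162 in the nearer. There were 70 between 100 and 51 bp upstream and 58 in the last 50 bp before the start. The first 50 bp from the nearest start onward held 28, and the following stretches of 50 bp downstream held 18, 13 and 8. The median summit lay 121 bp before the start, and the median distance was 129 bp for upstream and 62 bp for downstream summits. The distance cut-off passes through a populated region: K10B3.5, vha-16, cmt-1 and F53G12.9 were members at exactly 200 bp, with signals of 101, 98.9, 74.96 and 48.9, while F19B10.1 and Y39B6A.10 at 201 bp (signals 201 and 51.6) and rpl-41.1 and clic-1 at 202 bp (60.1 and 195) fell outside.

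The position of the summit moved with the annotation of the start. The distance from the nearest start to the first coding base of the gene was taken without regard to side. Internal starts that lie after the first coding base are therefore included. At 203 members the nearest start lay at most 10 bp from the first coding base, 183 of these summits were upstream, and the median upstream distance was 146 bp. At the 114 members whose nearest start lay over 100 bp from the first coding base, before or after it, 81 summits were upstream (71.1%) and their median distance was 66 bp. The 187 members in between had 173 upstream summits (92.5%) at a median distance of 123 bp. The median upstream distance was thus shorter the farther the nearest start lay from the first coding base, on either side of it. The median signals of the 3 groups were 91.7, 88.6 and 98.9 in the order just given. Whether spliced leaders play a part in this was not tested.

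The downstream summits were of several kinds. Of the 67, 36 lay between starts of the same gene, so that they were downstream of the nearest start and upstream of another one, and 31 lay downstream of every annotated start. Genes with more than 1 annotated start made up 40.5% of the upstream members (interval 36.0 to 45.2%) and 64.2% of the downstream members (52.2 to 74.6%), against 26.3% of all protein-coding genes. Such genes offer more positions close to a start, and only they can hold a summit between starts. The rule itself therefore favours them, and whether the shares go beyond that was not tested. By annotation 33 downstream summits fell in an untranslated exon of their own gene, 19 in a coding exon and 15 in an intron. Their median signals were 91.8, 51.9 and 72.2, and the highest signal at a coding exon was 109. Among the upstream summits 402 of 437 preceded every start of the gene and 384 lay in no protein-coding gene at all.

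The neighbourhood of the genes was also read by side, with no share over all genes to set beside it. The nearest protein-coding gene on the 5′ side ran in the same direction at 234 of the 437 upstream members (53.5%, interval 48.9 to 58.2%) and at 46 of the 67 downstream members (68.7%, 56.8 to 78.5%). These intervals overlap. This neighbour ended within 500 bp of the first start at 37.8% of the upstream members (33.3 to 42.4%) and at 58.2% of the downstream members (46.3 to 69.3%). Across all members the median gap was 309 bp to a tandem neighbour and 1536 bp to a divergent one, and a divergent gene whose start lies close by is removed by the rule itself. The rule counts from the summit, so this removal reaches farther to the 5′ side for upstream than for downstream summits.

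The 2 genes with 2 peaks show the different layouts. rnr-1, for the large subunit of ribonucleotide reductase, had 2 annotated starts and a peak upstream of each, 129 bp and 109 bp before the nearest start, with signals of 135 and 119.1. Both peaks held the longer E2F-type sequence. sms-3, for a sphingomyelin synthase, had 9 annotated starts and peaks 143 bp and 190 bp downstream of the nearest one, with signals of 74.1 and 57.1. Neither held a form of the sequence within 100 bp of the summit. Sites of the longer form lay 99 and 103 bp from the summit of the stronger sms-3 peak, not fully inside that window. All 4 of these peaks had a matched candidate in both replicates.

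Upstream peaks were stronger than downstream peaks in the median. The authors' signal value in the pooled list had a median of 96.97 upstream and 63.3 downstream, a ratio of 1.53, and the same peaks gave medians of 63.3 and 42.9 in replicate 1 (ratio 1.47) and of 35.1 and 25.9 in replicate 2 (ratio 1.36). The ranges overlapped widely, 45.6 to 1895 upstream and 45.7 to 486 downstream. By stretches of 50 bp, the medians from the most distal upstream stretch to the start were 98.9, 91.9, 116 and 98.3, and from the start onward 75.5, 55.0, 72.2 and 72.9. All 4 upstream medians were thus above all 4 downstream ones. The members as a whole had a median of 92.6, against 84.3 for single-gene peaks farther away, 97.5 for peaks near several genes, 69.6 at tRNA genes and 67.2 away from starts and tRNA genes. The members' values started at the entry level of the list: the lowest were C37C3.1 (45.8), spe-5 (45.7) and B0238.15 (45.6), and the strongest candidates at such positions that were not on it were F35C5.1 (45.5), pdi-2 (45.3) and gskl-1 (45.2).

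**Figure D2:**
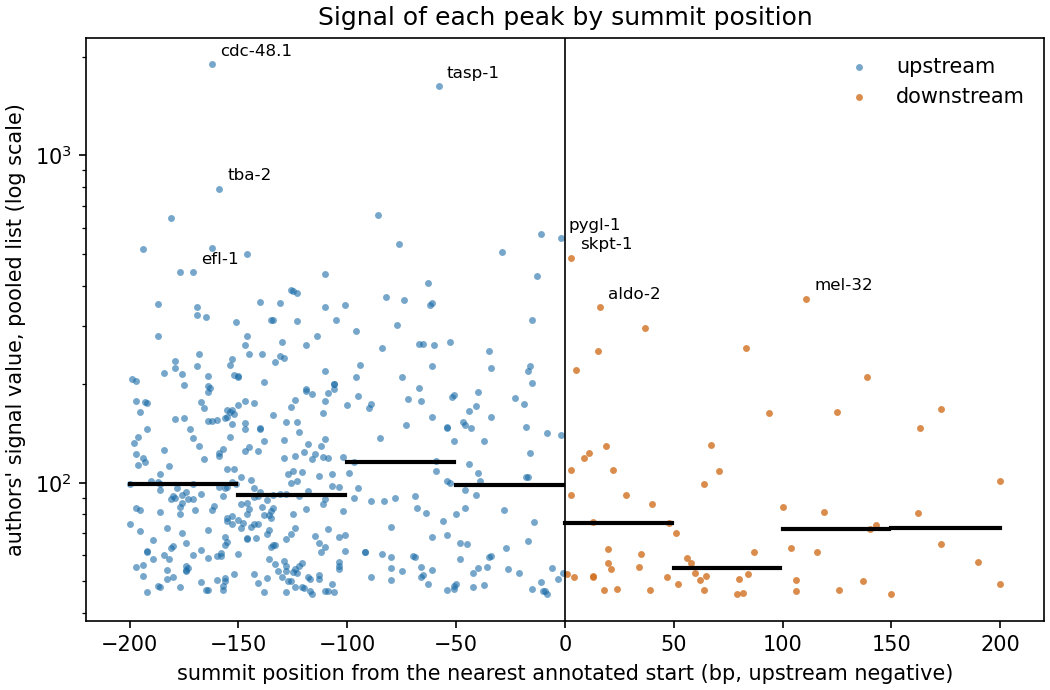
Authors' signal value of each peak in the pooled list (vertical axis, log scale) by summit position from the nearest start (horizontal axis, bp), with 437 upstream peaks and 67 downstream peaks as points and black bars for the median of each 50 bp. cdc-48.1 and tasp-1 stand highest, at 1895 and 1623, and the strongest downstream peak, skpt-1, is at 486.

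The strongest member was also the strongest of all nuclear peaks. cdc-48.1, for the AAA ATPase that extracts ubiquitinated proteins from complexes and membranes, had a pooled signal of 1895, with 1265 in replicate 1 and 634 in replicate 2 and the summit 162 bp upstream. tasp-1, named for the protease taspase, followed with 1623, 990 and 639 in the same lists, 58 bp upstream. Both were far above the next member, tba-2 for an alpha-tubulin, which had 790, 496 and 296 and was 159 bp upstream. fbxl-2, an F-box protein gene, had 658, and citk-2 had 644.

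The members ranked sixth to twentieth had signals between 574 and 384 and covered varied functions. Y39B6A.43 had 574, pygl-1 for glycogen phosphorylase 557, and isw-1 for the ISWI chromatin remodelling ATPase 534. They were followed by F48A11.4 (522), the NASP-family histone chaperone gene nasp-2 (518), the snRNA-activating complex gene snpc-3.4 (507) and ddp-1 (499), for a small protein of mitochondrial import. skpt-1, an F-box gene related to SKP2, had 486 and was the only downstream peak among the 20. The others were mex-1 (440), efl-1 (440), lin-9 (435), the proteasome deubiquitinase gene rpn-11 (428), pafo-1 (406), H14E04.2 (389) and B0432.10 (384). Of the 20 strongest nuclear peaks of any kind 7 were members, and of the strongest 100 there were 33.

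Downstream peaks reached lower values, and the 8 strongest lay between 3 and 139 bp downstream of the nearest start. skpt-1 had a pooled signal of 486, with 327 and 164 in the replicates, and its summit was 3 bp downstream. mel-32, for serine hydroxymethyltransferase, which feeds folate-bound carbon to nucleotide synthesis, had 364, 223 and 147 with the summit 111 bp downstream in an intron. aldo-2, for an aldolase of glycolysis, had 343, 204 and 137 with the summit 16 bp downstream. ints-4 of the Integrator complex had 296, Y55F3BR.1 257, the spindle assembly gene rsa-2 252, the mitochondrial ribosomal gene mrpl-47 221 and the Argonaute gene ppw-1 211. The summits of skpt-1, mel-32, mrpl-47 and ppw-1 had another start of the same gene farther downstream.

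Replicates agreed on the order of the members to a moderate degree. A candidate peak overlapped in both replicates at 501 of 504 members, and over these 501 peaks the signals had a Spearman correlation of 0.764 and a Pearson correlation of log2 values of 0.799, as a description over peaks that share the same 2 libraries. The Spearman correlation was 0.780 over the 434 upstream and 0.560 over the 67 downstream peaks, against 0.668 over 2147 nuclear peaks of all kinds. The pooled value was close to the sum of both replicates, with a median ratio of 0.999 to that sum, so it is no separate measurement. Replicate 1 was the higher at 471 of the 501, with a median ratio of 1.82 to replicate 2. Among nuclear peaks of all kinds it was the higher at 1914 of 2147, with a median ratio of 1.70.

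**Figure D3:**
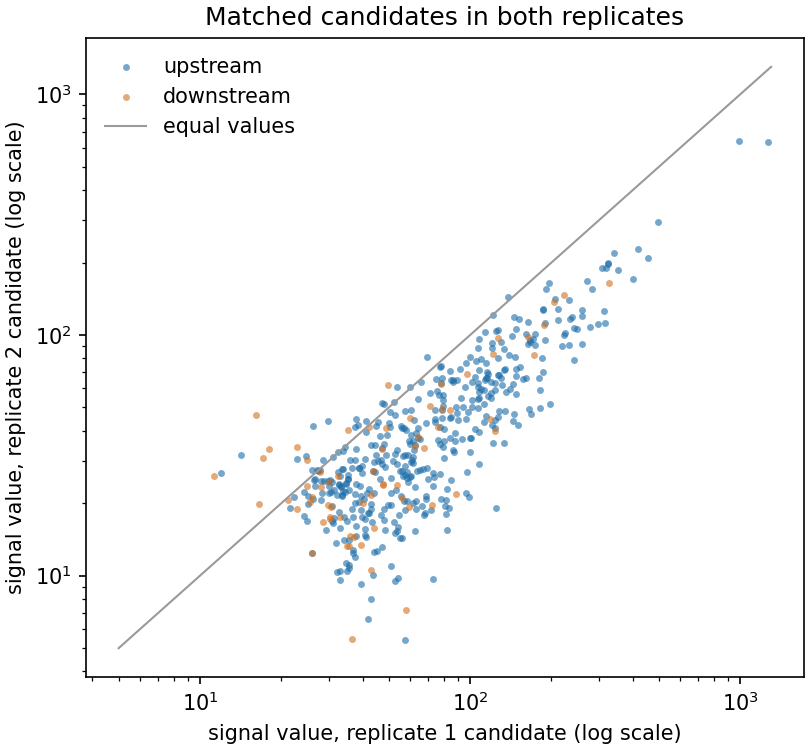
Authors' signal value of the matched candidate in replicate 2 (vertical axis, log scale) against replicate 1 (horizontal axis, log scale) for 434 upstream and 67 downstream members, with a line of equal values. Most points lie below the line, and cdc-48.1 and tasp-1 are the 2 points at the upper right.

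The rank of the members in each replicate follows the signal that put them on the list, and is given as a description. With the 2179 strongest nuclear candidates of each replicate taken as its own list, 331 of 437 upstream members (75.7%) and 34 of 67 downstream members (50.7%) were on both, against 69.4% of all nuclear reproducible peaks. The most uneven members were xrn-2, with 16.1 in replicate 1 and 46.4 in replicate 2, and Y39G10AR.11, with 57.5 and 5.39. C04B4.2 had no overlapping candidate in replicate 1, and eor-2 and hif-1 had none in replicate 2.

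The E2F-type sequence was present in a minority of members and more often in the stronger ones. Within 100 bp of the summit, 102 of 504 members held the longer form (20.2%, interval 16.96 to 23.96%), against 17.2% of all nuclear reproducible peaks and 3.31% of windows of the same 201 bp length before the first start of all protein-coding genes. The shorter form was present in 38.1% (34.0 to 42.4%), against 30.7% of all peaks and 6.26% of gene starts. The other peaks near starts had similar shares, with intervals that overlap those of the members: the longer form was present in 18.9% of single-gene peaks farther away and 20.1% of peaks near 2 or more genes, and the shorter form in 33.7% and 35.5%. Peaks at tRNA genes had 7.33% and 11.7%, and peaks away from starts and tRNA genes 16.2% and 28.4%. The longer form read backwards from 3′ to 5′, CGCNNTTT with C or G at each N, which has the same base composition, was found in 4.76% of members (3.22 to 6.99%) and 1.75% of gene starts. The GC content of the windows averaged 38.6% at members (SD 6.46 over peaks) and 41.4% at the other peaks (SD 6.91).

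The share with the sequence was lower at weaker members. Among the 126 strongest members 41 held the longer form (32.5%, interval 24.98 to 41.1%), and the following groups of 126 had 23.02%, 14.3% and 11.1%. The shorter form gave 53.97, 44.4, 30.2 and 23.8% in the same order. Read the other way, the median signal was 146 for the 102 members with the longer form, 118 for the 90 with only the shorter form and 81.3 for the 312 with neither. The mean GC content of the windows in the 4 groups was 38.5, 37.7, 38.4 and 39.9%, and whether base composition plays a part in the shares was not tested. Upstream members held the longer form in 93 of 437 cases (21.3%, 17.7 to 25.36%) and downstream members in 9 of 67 (13.4%, 7.23 to 23.6%), and these intervals overlap. The upstream median signal was above the downstream one among members with the longer form (153 against 91.8) and with neither (84.6 against 57.1), but below it among members with only the shorter form (113 over 79 peaks against 130 over 11).

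The sites lay close to the summits. The 102 members held 118 sites of the longer form, 14 members had 2 or more, and no member had more than 3. The nearest site was within 25 bp of the summit at 54 and within 50 bp at 89 of the 102, with a median distance of 20 bp. The numbers per 50 bp were 51 and 49 on the 2 sides of the summit, and from 1 to 11 in each other 50 bp stretch out to 500 bp. Of the 118 sites 63 read in the direction of the gene and 55 in the opposite direction. Relative to the start the sites were most frequent from 150 to 101 bp upstream, with 41, which is also where most summits were.

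The 4 spellings were not equally frequent. TTTCGCGC was present in 46 members with a median signal of 178, TTTCCCGC in 34 with 149, TTTGCCGC in 19 with 110 and TTTGGCGC in 17 with 123. At the starts of all protein-coding genes TTTCCCGC was the most frequent spelling, in 1.101%, and TTTCGCGC followed with 0.896%. The members' share over that at gene starts was thus larger for TTTCGCGC, at 9.13%, than for TTTCCCGC, at 6.75%.

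A second sequence was read because the LIN-54 subunit of DREAM is known to bind it. The CHR, TTNGAA with C or T at N, was present on either strand within 100 bp of 327 members (64.9%, interval 60.6 to 68.9%), against 56.2% of gene starts, so a 6-base sequence of this composition is common everywhere. Peaks near 2 or more genes had the same share, 64.95% (60.2 to 69.4%), while single-gene peaks farther away had 56.2%, peaks at tRNA genes 50% and peaks away from starts and tRNA genes 45.7%. TTCGAA reads the same on both strands. In the 4 groups by signal the share was 77.0, 69.8, 62.7 and 50%. The 68 members with both the longer E2F-type sequence and a CHR had a median signal of 154, the 34 with the longer sequence alone 122, the 203 with a CHR and no E2F-type form 86.9, and the 109 with none of these 65.6.

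**Figure D4:**
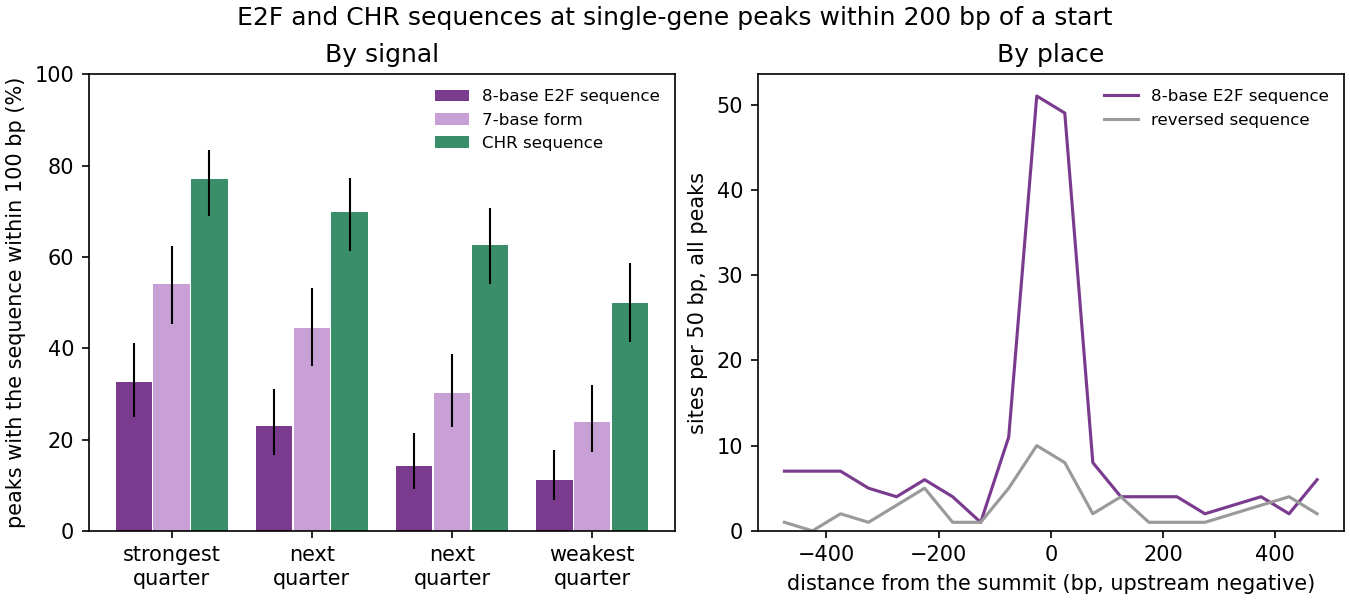
Left, percentage of members with the 8-base E2F-type sequence, its 7-base form and the CHR sequence within 100 bp of the summit (vertical axis, with 95% Wilson intervals) in 4 groups of 126 members ordered by signal. Right, number of E2F-type sites and of the reversed sequence per 50 bp (vertical axis) by distance from the summit (horizontal axis, bp). All 3 sequences become rarer from the strongest to the weakest group, and 100 of the E2F-type sites lie within 50 bp of a summit.

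The genes of these peaks were read against 22 lists of worm genes by function. Of all 19973 protein-coding genes 2.51% had a member peak, and 8.86% had a reproducible peak of any class within 500 bp of a start. Of 989 genes on the lists 81 had a member peak (8.19%), and the other 421 member genes were on no list, 158 of them known by a sequence name only. The lists do not hold every gene of a function, so the counts below are for listed genes only. A listed gene can miss the set because it has no peak, because its peak is farther away or because it shares the peak with a neighbour. The counts below therefore give these cases as well.

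DNA replication had the highest share, with 13 of 45 genes, 11 of them with an upstream summit. The strongest were psf-3, a subunit of the GINS complex of the replicative helicase, with a signal of 281, the dUTPase gene dut-1 with 281, and the helicase gene mcm-7 with 239. The replicates had 164 and 113 at psf-3, 137 and 143 at dut-1, and 121 and 121 at mcm-7. The longer E2F-type sequence was present at 10 of the 13, at 6 of the 11 oocyte genes, 2 of the 10 spindle genes and 1 of the 8 repair genes described next, against 20.2% of all members. A further 4 replication genes had a single-gene peak farther away, 14 shared a peak with a neighbour and 14 had none.

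Genes of oocytes, eggshell and maternal supply came next, with 11 of 40, all upstream. mex-1, for a maternal zinc finger RNA-binding protein, had 440, the yolk receptor gene rme-2 had 361, and cbd-1, for an eggshell protein, had 247. Replicate values were 284 and 155 at mex-1, 195 and 165 at rme-2, and 145 and 118.8 at cbd-1. The median signal of the 11 was 225, above the 92.6 of all members. Other lists were above it too, such as chromatin regulators (287) and DNA repair (159). Others were below it, such as protein folding (68.5) and oxidative phosphorylation (56.0). A further 10 genes of this list had a single-gene peak farther away, 6 a shared peak and 13 none.

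The genes for DREAM and the E2F proteins had 2 members of 10. efl-1 itself had a signal of 440, with 313 in replicate 1 and 125 in replicate 2, and its summit 171 bp upstream. Because the strain carries tagged efl-1, binding at this gene and extra copies of its DNA cannot be told apart here. lin-9 had 435, with 271 and 168, and a summit 110 bp upstream. dpl-1, for the dimerisation partner, had a single-gene peak 254 bp upstream with a signal of 111.7, and lin-35, lin-53 and lin-54 had peaks shared with 1 other gene, of 226, 468 and 454. lin-52 had only a candidate of 37.6 that was not reproducible, and efl-2, efl-3 and lin-37 had neither a reproducible nor a candidate peak within 500 bp of a start.

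Division and repair genes were also above the share of all genes. The spindle and kinetochore list had 10 of 53 members, led by the centriole gene sas-5 (268), the spindle checkpoint gene mdf-1 (165) and the centromere gene knl-2 (130), and 27 more of its genes were at shared peaks. DNA repair had 8 of 45, led by fcd-2 (345), the worm FANCD2, smc-5 (244) and the BRCA1 gene brc-1 (229). Cell cycle control had only 2 of 36, cyb-3 for cyclin B3 (309) and the CDK inhibitor gene cki-2 (108), while 14 more genes of that list were at other peaks. Chromatin regulators had 4 of 25, led by isw-1 (534) and the Polycomb-type genes mes-2 (355) and mes-6 (220).

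**Figure D5:**
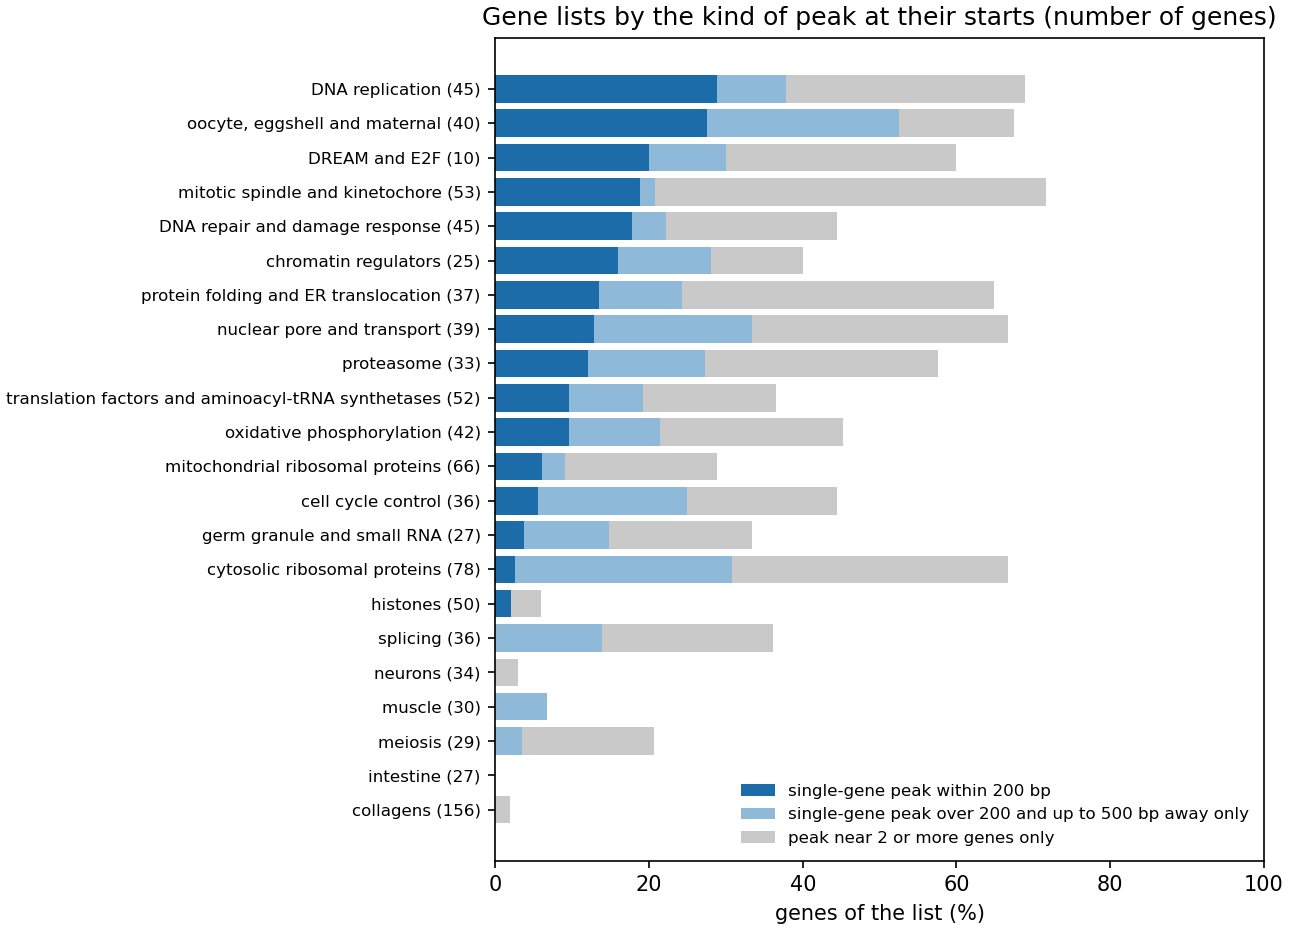
Percentage of the genes of each list (horizontal axis; number of genes in brackets) with a single-gene peak within 200 bp of a start, with only a single-gene peak farther away, or with only a peak near 2 or more genes. DNA replication has the longest dark bar, with 13 of 45 genes, and no gene of the intestine list has a peak of any of the 3 kinds.

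Lists of general cell functions had smaller shares than DNA replication, but those given here were also above the 2.51% of all genes. They ran from 6.06% for mitochondrial ribosomal proteins to 13.5% for protein folding. The nuclear pore and transport list had 5 of 39, led by npp-19 (351), npp-8 (194) and lem-2 (120). Protein folding had 5 of 37, with cdc-48.1, the co-chaperone gene sti-1 (368) and the BiP gene hsp-3 (68.5), and the proteasome had 4 of 33, with rpn-11, rpt-1 (193) and pbs-3 (72.6). Translation factors had 5 of 52, led by the eIF5A gene iff-2 (264), eif-2A (128) and eif-2gamma (80.3). Oxidative phosphorylation had 4 of 42, led by cox-5B (349), cyc-2.1 (61.2) and nuo-2 (50.8), and mitochondrial ribosomal proteins had 4 of 66, led by mrpl-47 (221), mrpl-28 (213) and mrpl-55 (200).

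Cytosolic ribosomal protein genes were at peaks of other classes instead. Only rpl-24.2 (355) and rpl-18 (67.2) of 78 were members (2.56%, near the 2.51% of all genes), but 22 more had a single-gene peak farther away and 28 shared a peak, so 26 had none. The germ granule and small RNA list had 1 of 27, the Argonaute gene alg-2 (85.9), and histones had 1 of 50, his-37 (163). Both shares lay near the 2.51% of all genes, and each rests on 1 gene. Related member genes that are off these lists, such as the Argonaute gene ppw-1 (211), were not counted. No gene on the lists for meiosis (29 genes), splicing (36), muscle (30), neurons (34), intestine (27) and collagens (156) was a member. At the 2.51% of all genes, few or none would be expected in lists this short. Genes of these functions that are off the lists were not counted. Of these 6 lists, splicing had 13 and meiosis 6 genes at peaks of the other classes, and the remaining 4 had between 0 and 4.

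The members were unevenly spread over the chromosomes. Genes with a member peak made up 118 of the 2878 protein-coding genes of chromosome I, and 3.71% of III, 2.90% of II, 2.50% of IV and 1.72% of V, together 484 of 17242 autosomal genes (2.81%). On the X chromosome 18 of 2731 genes had one (0.659%). The X members had a median signal of 64.9, below the 81.8 to 118 of the autosomes, and 17 of the 18 were upstream. Of the members 3.57% lay on X, against 13.5% of the other nuclear peaks.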

How the data were processed

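Peaks came from 2 biological replicates of whole young adult hermaphrodites, in coordinates of ce11 per the labels. The authors deposited, per the labels, peak lists in narrowPeak layout: 30000 candidates for each replicate and for both together, and a list of 2207 reproducible peaks (irreproducible discovery rate), of which 2179 were nuclear. Each deposited line holds a signal value whose scale is not named, a −log10 q-value, which was the same at every reproducible nuclear peak (3.70) and was not used to rank, and other columns such as the summit offset. For the aligner, peak caller and threshold nothing was given in the sources used here. The files hold no read counts, so depth is unknown.

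Starts and tRNA genes were taken from the Ensembl release 115 annotation of WBcel235, which is ce11, and sequences from the RefSeq copy of that assembly. A replicate candidate was matched to a peak when they overlapped by at least 1 bp, taking the highest signal. Classes, shares and medians were computed with Python 3.11.15, numpy 2.4.6 and scipy 1.17.1, and figures with matplotlib 3.10.9. The code was tested on simulated peaks and sequences. No p-values were computed. Members and lists were chosen with earlier results of these data known. Genes named are those of the 20 strongest members, the 8 strongest downstream members, the members at each limit, the 3 strongest of each list, genes with 2 peaks, those with a printed sequence and the DREAM list. The members with the most uneven or missing replicate candidates were named after their values were seen.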

Additional observations from a re-analysis of the deposited data

How the results depend on the processing

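No paired analysis was possible because there is only 1 group and no test. Of 51 values under other settings, 39 stayed close to the reported one and 12 moved. Counts, shares and the correlation could only stay close or move. A change of direction was possible only for the ratio of upstream to downstream median signal. Under its other settings that ratio lay between 1.16 and 1.73, so upstream peaks remained the stronger in the median. Keeping only starts within 100 bp left 175 peaks, of which 73.1% were upstream, with a ratio of upstream to downstream median signal of 1.73. Keeping only the stronger 50% of nuclear peaks left 303 members, with 91.1% upstream, a ratio of 1.16 and 26.7% with the longer E2F-type sequence. With starts up to 300 bp, 137 listed genes had a member peak against 81. Windows of 50 bp gave 16.9% with the longer sequence, the shorter form 38.1% and the reversed one 4.76%.

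Each replicate's own strongest 2179 nuclear candidates gave 486 to 502 members, 84.8 to 87.3% upstream, ratios of 1.43 to 1.45, 19.5 to 20.4% with the longer sequence and 78 to 80 listed genes. Replicate 1 alone shared 438 of its 499 genes with the reported set (87.3% of the set, 87.8% of its own), and replicate 2 alone 384 of 482 (76.5% and 79.7%). With 1 group and no counts in the files, the spread between samples rests on 2 libraries, and no level here has a test.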

Other observations

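Genes annotated as ncRNA lay within 100 bp of 10 members (1.98%), against 329 of all nuclear peaks (15.1%), members and peaks at tRNA genes included. Those for snoRNAs lay within 100 bp of 2 members (0.397%), cmtr-1 and sdha-1 (named after their values were seen), against 66 of all peaks (3.03%). piRNA genes lay by 3 members (0.595%), against 13 of all peaks (0.597%). No member was near an snRNA or miRNA gene, against 10 (0.459%) and 7 (0.321%) of all peaks. At shares this low few or no members would be expected near one.

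All words of 8 bases present in at least 20 members were ranked by the ratio of their share among members to their share at the starts of all protein-coding genes, as a description with no test. The first was TCGCGCCA, read on either strand, in 21 members (4.17%, against 1.85% of the other peaks and 0.255% of gene starts), with a median signal of 203. TTCGCGCC followed, in 27 members (5.36%, against 3.28% and 0.345%). These words overlap the E2F-type sequence TTTCGCGC. GCGCTCCA, whose first 4 bases are also the last 4 of TTTCGCGC and TTTGGCGC, was in 41 members (8.13%, against 5.01% of the other peaks and 0.916% of gene starts), with a median signal of 140. It is present in the printed window of efl-1 and was picked out after its values were seen.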
